A study of Homo sapiens with 36 samples.

Results

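Fatty acid desaturases put double bonds into acyl chains. The 4 described here, SCD, SCD5, FADS1 and FADS2, were taken by gene symbol from both deposited expression tables, in which all 4 had a row, out of 13534 genes present in at least 1 of the tables. Tags from the 3' ends of transcripts were counted in 36 libraries of 501mel and IGR37, a pair of established human melanoma lines grown in serum-containing RPMI-1640. In each line 3 libraries came from each of 6 groups. These were the SCD inhibitor A939372 at 1 uM (SCDi) and its DMSO vehicle, the SCD siRNA siSCD#1 and the control siRNA libraries titled siCTR_1, and the SCD siRNA siSCD#2 and the control siRNA libraries titled siCTR. Each siRNA was used at 20 nM, and RNA was taken at 48 h. Each line is a single established line, and nothing in the labels shows that replicates came from different cultures, so the spread behind each p-value may be technical. The question named in the title of the series is how SCD and fatty acid saturation relate to MITF, the pigment cell regulator, in melanoma.

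SCD and SCD5 are stearoyl-CoA desaturases of the endoplasmic reticulum, which place the first double bond of palmitic and stearic acid and so make palmitoleic and oleic acid. FADS2 and FADS1 are front-end desaturases that act in turn on dietary polyunsaturated fatty acids on the way to arachidonic and eicosapentaenoic acid, and FADS2 can also act on palmitate. All 4 enzymes take electrons from cytochrome b5 and its reductase. SCD, FADS1 and FADS2 are classic targets of the sterol-sensing SREBP transcription factors, and SCD is also a target of the oxysterol receptor LXR.

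The 12 SCDi, DMSO, siSCD#2 and siCTR libraries of each line were in a table of 24 libraries, and the 6 siSCD#1 and siCTR_1 libraries of each line were in a table of 12 that the authors normalised separately. Values are log2 CPM, read counts scaled to a common library depth. Because 1 tag is read per transcript end, a level is not divided by transcript length, and levels are compared below only within a gene and within a table. Gene reads per library were 4078450 to 6685898 in the table of 24 and 2402788 to 7483010 in the table of 12. Pigment cell identity was checked with 10 lineage genes, all measured, whose summed level was 3876 to 7146 CPM and 3219 to 7142 CPM in the 2 tables. Only 2 of 9 epithelial markers were measured, at a sum of 0.0929 to 8.43 CPM in the table of 24 and 2.46 to 10.9 CPM in the table of 12. The lowest sum, 0.0929 CPM, is the value that the deposited scale gives when neither gene has a read. Fibroblast markers (4 of 9 measured in the table of 24 and 2 of 9 in the table of 12) summed to 5.74 to 34.8 CPM and 2.79 to 23.2 CPM, and blood and endothelial markers (3 of 10 measured) to 4.73 to 90.4 CPM and 10.9 to 27.2 CPM. Changes are treated minus control on the log2 scale, ± SE, from limma with Benjamini-Hochberg (BH) adjustment over all genes of a table, with a threshold of 0.05 and n = 3 libraries per group. In bulk RNA, fewer cells of a kind and less RNA per cell cannot be told apart.

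SCD (ENSG00000099194.5) lies on chromosome 10 at 100347124 to 100364834, plus strand, in hg38, and SCD5 (ENSG00000145284.11) on chromosome 4 at 82629539 to 82798857, minus strand. FADS1 (ENSG00000149485.18, chromosome 11, 61799625 to 61829318, minus strand) and FADS2 (ENSG00000134824.13, chromosome 11, 61792980 to 61867354, plus strand) are neighbours. In GENCODE 29, FADS1 lies wholly inside the FADS2 span on the other strand, and 490 exon bases, 4.79% of those of FADS1 and 4.44% of those of FADS2, are shared. The last 500 bases of FADS1 and of FADS2, where 3' tags are read, hold 0 exon bases of each other or of nearby FADS3 and FEN1. Neighbours of SCD and SCD5 were not checked. Whether the authors counted by strand is not given in the sources used here, so reads in the shared bases cannot be assigned to FADS1 or FADS2.

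The promoters are shown because the 4 genes differed in how they moved, and SCD, FADS1 and FADS2 are usually described as sharing regulators. The windows, from RefSeq on GRCh38.p14, run from 250 bases before to 50 bases after the transcription start, 5′ to 3′ on the strand of the gene. Capitals mark exact matches, on either strand, to CCAAT (the NF-Y box), GGGCGG (the GC box of Sp1) and TGACGTCA (the full cAMP response element, a motif looked up after the FADS1 letters had been seen). The matches do not overlap one another.
SCD, chr10:100346983-100347282, plus strand: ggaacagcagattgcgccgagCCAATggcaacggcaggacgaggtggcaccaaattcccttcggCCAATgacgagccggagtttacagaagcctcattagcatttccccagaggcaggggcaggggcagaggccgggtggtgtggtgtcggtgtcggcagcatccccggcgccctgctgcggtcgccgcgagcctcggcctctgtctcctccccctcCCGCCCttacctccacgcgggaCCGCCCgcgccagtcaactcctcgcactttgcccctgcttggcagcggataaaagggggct
SCD5, chr4:82798747-82799046, minus strand: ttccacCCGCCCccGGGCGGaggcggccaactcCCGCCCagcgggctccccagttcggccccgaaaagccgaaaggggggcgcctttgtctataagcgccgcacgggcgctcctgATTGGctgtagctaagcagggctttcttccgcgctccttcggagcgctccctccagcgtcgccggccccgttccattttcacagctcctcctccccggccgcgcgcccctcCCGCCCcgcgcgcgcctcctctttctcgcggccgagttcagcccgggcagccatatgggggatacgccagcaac
FADS1, chr11:61816954-61817253, minus strand: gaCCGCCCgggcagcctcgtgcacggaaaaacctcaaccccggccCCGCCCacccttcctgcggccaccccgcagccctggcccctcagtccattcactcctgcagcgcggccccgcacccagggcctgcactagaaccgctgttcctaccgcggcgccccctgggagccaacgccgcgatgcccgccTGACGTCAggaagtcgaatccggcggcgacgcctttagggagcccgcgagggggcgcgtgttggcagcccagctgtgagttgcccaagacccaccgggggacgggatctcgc
FADS2, chr11:61816154-61816453, plus strand: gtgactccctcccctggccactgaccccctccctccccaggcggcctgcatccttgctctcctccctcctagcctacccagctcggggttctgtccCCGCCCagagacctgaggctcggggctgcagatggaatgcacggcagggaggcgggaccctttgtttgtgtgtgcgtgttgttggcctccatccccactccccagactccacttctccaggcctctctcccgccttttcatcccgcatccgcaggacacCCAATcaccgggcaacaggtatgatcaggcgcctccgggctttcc

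The SCD window held 2 CCAAT and 2 GGGCGG matches, and the SCD5 window 1 CCAAT and 4 GGGCGG matches. The FADS1 window held 2 GGGCGG matches and 1 TGACGTCA, 62 bases before the start. The FADS2 window shown held 1 GGGCGG and 1 CCAAT, and an alternative FADS2 start upstream had a window, overlapping the one shown, with no match to any motif. Among 35097 promoters of the same length, 34.6% held CCAAT, 44.95% held GGGCGG and 1.849% held TGACGTCA. The E-box CACGTG, its variant CATGTG (E-box letters bound by MITF) and the sterol element letters TCACNCCAC were in none of the 5 windows of the members, against 7.254%, 11.09% and 1.128% of all promoters. These are letter matches in short windows and say nothing of whether a factor binds.

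Of the 4 desaturases, 1 rose (FADS1) and 0 fell past the threshold with SCDi in 501mel, where 0.292% of all genes passed (0.232% higher and 0.0599% lower). With SCDi in IGR37, 2 rose (SCD and FADS1) and 1 fell (SCD5), where 44.1% of all genes passed (20.9% higher and 23.1% lower). With siSCD#1 in 501mel, FADS2 rose and SCD fell, where 43.0% passed (20.9% higher and 22.0% lower). With siSCD#1 in IGR37, FADS2 rose and both SCD and FADS1 fell, where 36.1% passed (16.7% higher and 19.4% lower). With siSCD#2 in 501mel, FADS1 rose and both SCD and FADS2 fell, where 37.9% passed (18.3% higher and 19.5% lower). With siSCD#2 in IGR37, SCD and FADS2 fell and 0 rose, where 45.9% passed (23.2% higher and 22.7% lower). Outside 501mel with SCDi, a call of a single gene is therefore common. Spike-in scaling moved every treated minus control difference by a constant, since spike-ins differed by -0.64 with SCDi in 501mel, -0.18 with SCDi in IGR37, 0.43 with siSCD#2 in 501mel and 0.22 with siSCD#2 in IGR37. Higher genes were then 99.8%, 69.2%, 8.99% and 27.2% of those past the threshold in these 4 comparisons, against 79.5%, 47.5%, 48.4% and 50.5% under the authors' scaling. The spike-in shift is a mean over spike-ins whose own proportions differed by group. In every treated group 1 spike-in was lower by 1.52 to 2.38 and another higher by 0.36 to 1.31. Spike-in scaling is therefore given as a limit and not as a common reference for treated and control libraries. All directions below, also those of gene lists and single pathway genes, are relative to the authors' scaling.

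SCD, the target of both siRNAs and of the inhibitor, fell with either siRNA in each line. In 501mel it was 5.05, 4.95 and 5.09 log2 CPM with siSCD#2, against 9.23, 9.49 and 9.36 with siCTR. The IGR37 libraries had 6.52, 5.32 and 6.09 with siSCD#2, against 10.16, 10.16 and 10.05 with siCTR. The siSCD#2 libraries of IGR37 spread over more than 1 log2 unit, while both lines' siSCD#2 libraries lay far below every control. The changes were -4.33 ± 0.16 in 501mel and -4.15 ± 0.16 in IGR37 (limma, adjusted p = 1.54e-16 and 1.29e-15), which left 4.98% and 5.64% of the control level. The SE pools the spread of all groups of the table, while the SD of the IGR37 siSCD#2 libraries alone was 0.61. In reads, SCD had 520 against 10188 in 501mel and 1069 against 20104 in IGR37, summed over 3 libraries.

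With siSCD#1, SCD was 6.83, 7.06 and 6.93 log2 CPM in 501mel, against 9.80, 9.81 and 9.75 with siCTR_1. IGR37 had 7.46, 7.33 and 7.49 with siSCD#1, against 10.13, 10.04 and 10.10 with siCTR_1. The groups were far apart in both lines, with changes of -2.85 ± 0.07 and -2.67 ± 0.07 (limma, adjusted p = 3.62e-13 and 1.03e-12). The siRNA left 13.9% of the control level in 501mel and 15.8% in IGR37, more than siSCD#2 left, although the 2 siRNAs sit in separately normalised tables and the difference between them was not tested.

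The inhibitor, which acts on the enzyme, went with more SCD mRNA in IGR37. SCD was 10.37, 10.42 and 10.31 log2 CPM in the SCDi libraries of IGR37, against 9.77, 9.73 and 9.72 with DMSO, a 1.54-fold rise (0.63 ± 0.16, limma adjusted p = 0.00215). In 501mel it was 9.65, 9.73 and 9.79 with SCDi, against 9.47, 9.33 and 9.50 with DMSO. The 501mel groups did not overlap either, but the difference of 0.29 ± 0.16, with a 95% interval of -0.03 to 0.62, was not past the threshold (adjusted p = 0.573). With spike-in scaling it was 0.93 and past it (adjusted p = 0.00777). The inhibitor's effect was 0.33 ± 0.22 larger in IGR37, which was also not past it (adjusted p = 0.291). In 501mel 39 of 13364 genes passed in limma with the inhibitor, and 1311 had an unadjusted p under 0.05.

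**Figure D1:**
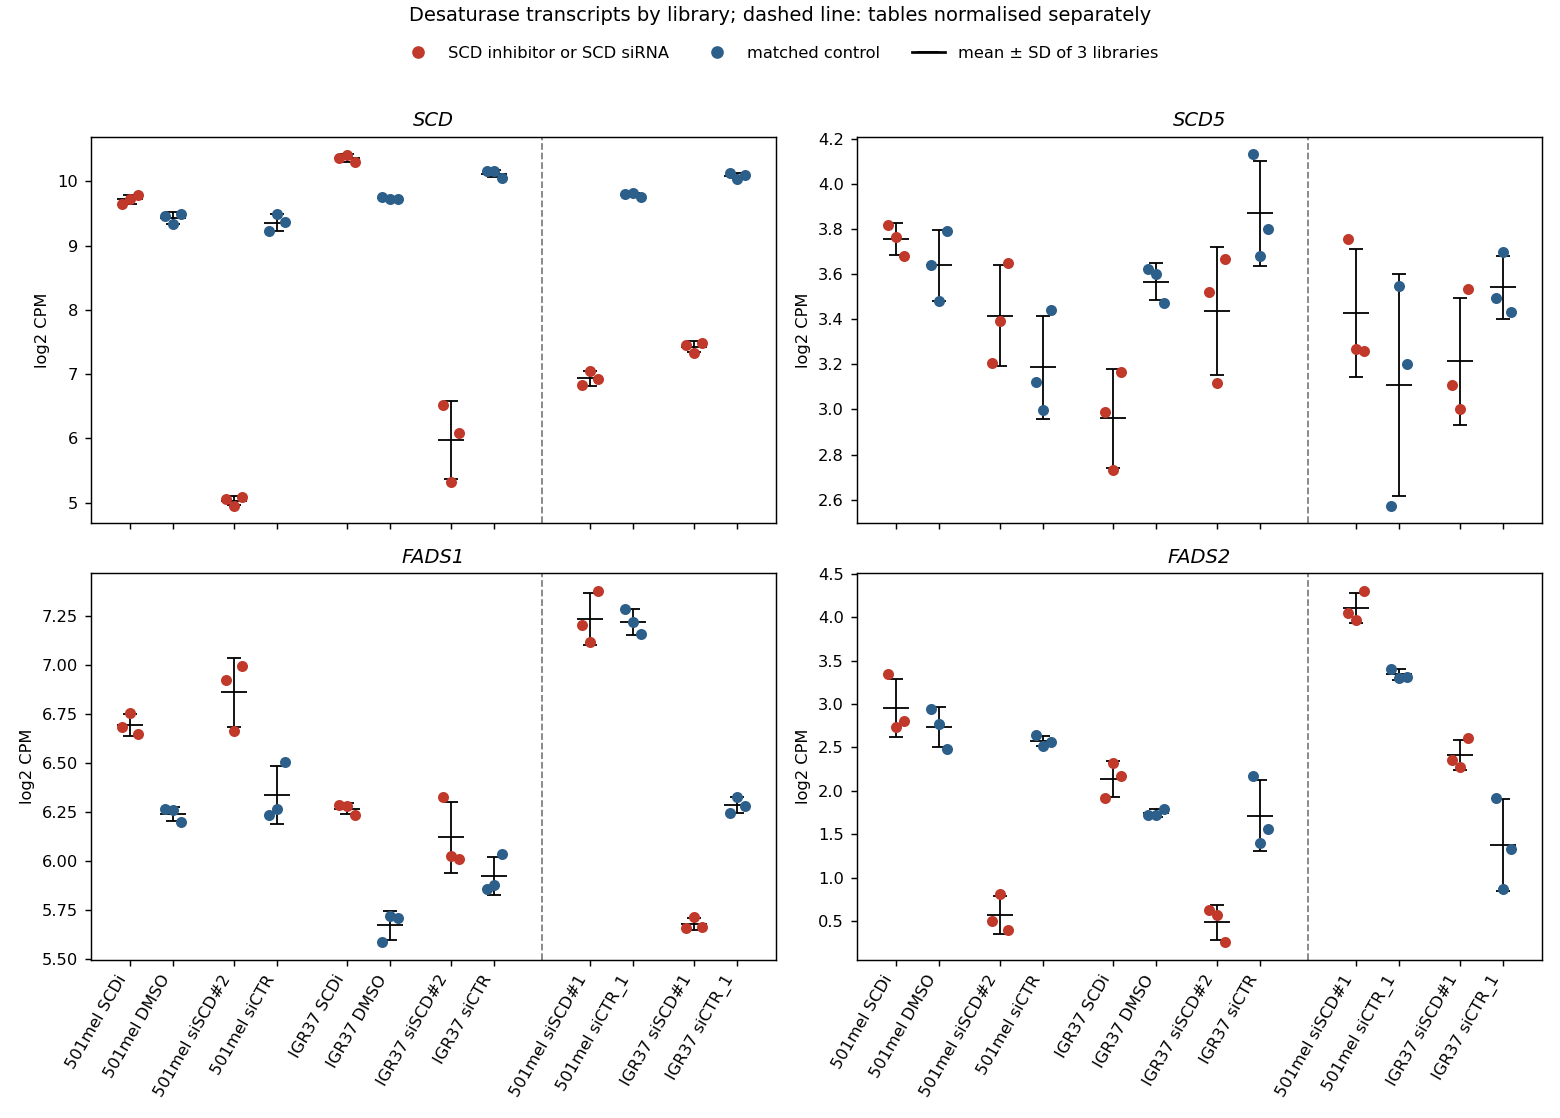
Log2 CPM of each desaturase in every library, treated groups left of their controls, with points for libraries and bars for mean ± SD of 3 libraries. SCD drops with both siRNAs in both lines, while FADS2 lies below its controls with siSCD#2 and above them with siSCD#1.

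SCD5, the second stearoyl-CoA desaturase, which makes the same double bond, was not past the threshold in any siRNA comparison. With siSCD#2 it was 3.20, 3.39 and 3.65 log2 CPM in 501mel, against 3.12, 3.0 and 3.44 with siCTR, and in IGR37 it was 3.52, 3.12 and 3.66, against 4.13, 3.68 and 3.80. With siSCD#1 it was 3.76, 3.27 and 3.26 in 501mel, against 2.57, 3.55 and 3.20 with siCTR_1, and in IGR37 it was 3.11, 3.0 and 3.53, against 3.49, 3.70 and 3.43. The groups overlapped in 3 of these comparisons and were apart by only 0.0139 log2 units for siSCD#2 in IGR37. The differences for siSCD#2 were 0.23 ± 0.19 in 501mel (95% interval -0.16 to 0.62, limma adjusted p = 0.369) and -0.43 ± 0.19 in IGR37 (-0.82 to -0.05, adjusted p = 0.0627). For siSCD#1 they were 0.32 ± 0.25 in 501mel (-0.22 to 0.85, adjusted p = 0.335) and -0.33 ± 0.25 in IGR37 (-0.86 to 0.21, adjusted p = 0.343). In the 3 comparisons whose groups overlapped, a rise or fall of SCD5 within these intervals was not detectable at this depth. The interval for siSCD#2 in IGR37 lay wholly on the side of a fall. That difference came past the threshold in 2 of 6 fits without 1 library (lowest limma adjusted p = 0.0373).

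SCD5 did fall with the inhibitor in IGR37. It was 2.99, 2.73 and 3.16 log2 CPM with SCDi, against 3.62, 3.60 and 3.47 with DMSO, with no overlap between the groups. The change was -0.61 ± 0.19 (limma adjusted p = 0.0109), a 1.52-fold lower level that rests on 116 reads in the SCDi libraries and 190 in the DMSO libraries. Without the second SCDi library it was -0.49 (adjusted p = 0.0645), and with spike-in scaling -0.43 (adjusted p = 0.309). In 501mel SCD5 was 3.82, 3.76 and 3.68 with SCDi, against 3.64, 3.48 and 3.79 with DMSO, which overlapped (0.12 ± 0.19, adjusted p = 0.911). The difference of these effects, IGR37 minus 501mel, was -0.72 ± 0.27 (95% interval -1.27 to -0.17, adjusted p = 0.0456), while 27.6% of all genes passed in that comparison. This call was lost in 10 of the 12 fits that left out 1 library, with adjusted p up to 0.121.

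**Figure D2:**
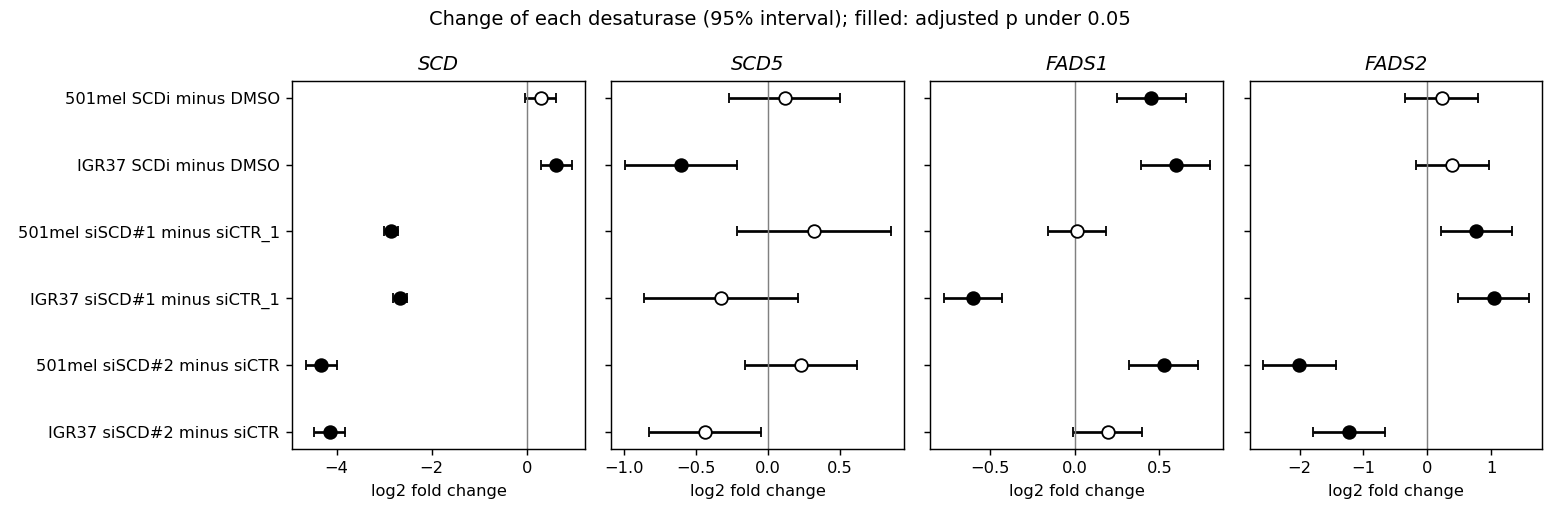
Log2 change, treated minus matched control, of the 4 desaturases in each of the 6 comparisons, with 95% intervals from limma; filled points are past the threshold. FADS2 changes by -2.0 and -1.23 with siSCD#2 and by 0.77 and 1.04 with siSCD#1 in 501mel and IGR37, while the intervals of SCD5 with either siRNA stay within about 1 log2 unit of no change.

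FADS1, the delta-5 desaturase of the polyunsaturated pathway, rose with the inhibitor in both lines. In IGR37 it was 6.29, 6.28 and 6.24 log2 CPM with SCDi, against 5.59, 5.72 and 5.71 with DMSO. In 501mel it was 6.68, 6.76 and 6.65 with SCDi, against 6.27, 6.26 and 6.20 with DMSO. Neither line's groups overlapped, and the rises were 1.51-fold in IGR37 (0.60 ± 0.10, limma adjusted p = 2.27e-05) and 1.37-fold in 501mel (0.45 ± 0.10, adjusted p = 0.0426). The 501mel call was lost when any 1 of its 6 libraries was left out, which gave 0.42 to 0.48 with adjusted p between 0.0991 and 0.228, and under 4 other settings given with the processing alternatives. The rise was 0.14 ± 0.14 larger in IGR37, with an interval of -0.15 to 0.43 (adjusted p = 0.489).

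With siSCD#2, FADS1 rose in 501mel. It was 6.92, 6.66 and 6.99 log2 CPM with siSCD#2 in 501mel, against 6.23, 6.27 and 6.50 with siCTR, a 1.44-fold rise with no overlap (0.52 ± 0.10, limma adjusted p = 0.000151). In IGR37 it was 6.33, 6.02 and 6.01 with siSCD#2, against 5.86, 5.88 and 6.04 with siCTR, which overlapped (0.20 ± 0.10, 95% interval -0.01 to 0.40, adjusted p = 0.110). The siSCD#2 effects in the lines differed by -0.33 ± 0.14 (IGR37 minus 501mel), which was not past the threshold (adjusted p = 0.0989). With spike-in scaling the 501mel difference was 0.10 (adjusted p = 0.783).

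With siSCD#1, FADS1 was 5.66, 5.71 and 5.67 log2 CPM in IGR37, against 6.24, 6.33 and 6.28 with siCTR_1, and so fell 1.52-fold with wide separation (-0.60 ± 0.08, limma adjusted p = 2.64e-05). In 501mel it was 7.20, 7.12 and 7.38 with siSCD#1, against 7.29, 7.22 and 7.16 with siCTR_1. There the groups overlapped and the difference was 0.01 ± 0.08, with an interval of -0.16 to 0.18 (adjusted p = 0.920). The effects of siSCD#1 in the lines differed by -0.62 ± 0.11 (IGR37 minus 501mel, interval -0.86 to -0.37, adjusted p = 0.00171), where 20.3% of all genes passed.

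FADS2, the delta-6 desaturase, fell with siSCD#2 and rose with siSCD#1, in both lines. In 501mel it was 0.50, 0.81 and 0.40 log2 CPM with siSCD#2, against 2.64, 2.52 and 2.57 with siCTR. The IGR37 values were 0.63, 0.57 and 0.26 with siSCD#2, against 2.18, 1.40 and 1.57 with siCTR. All 6 siSCD#2 libraries lay below all controls of their line, and the falls were 4.01-fold in 501mel (-2.0 ± 0.28, limma adjusted p = 2.45e-06) and 2.34-fold in IGR37 (-1.23 ± 0.28, adjusted p = 0.000727). The reads were few, 23 in the siSCD#2 libraries against 91 in the siCTR libraries of 501mel, and 21 against 58 in IGR37. The effects in the lines differed by 0.78 ± 0.39 (IGR37 minus 501mel), which was not past the threshold (adjusted p = 0.166).

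With siSCD#1, FADS2 was 4.05, 3.97 and 4.30 log2 CPM in 501mel, against 3.41, 3.30 and 3.31 with siCTR_1. In IGR37 it was 2.36, 2.27 and 2.61 with siSCD#1, against 1.92, 0.87 and 1.33 with siCTR_1. All siSCD#1 libraries lay above all controls of their line, and the rises were 1.70-fold in 501mel (0.77 ± 0.26, limma adjusted p = 0.0266) and 2.05-fold in IGR37 (1.04 ± 0.26, adjusted p = 0.00536). In 501mel the call was lost in 5 of the 6 fits without 1 of its libraries (0.67 to 0.83, adjusted p up to 0.0967), and with quantile or spike-in scaling (adjusted p = 0.0801 and 0.058). In IGR37 it held in all 6 such fits (0.79 to 1.31, adjusted p up to 0.0299), and was lost when only the 6 compared libraries were fitted (adjusted p = 0.0519). The effects in the lines differed by 0.27 ± 0.37 (IGR37 minus 501mel, adjusted p = 0.652). Since the 2 siRNAs were measured in separately normalised tables, the difference between their effects on FADS2 was not tested.

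No change of FADS2 passed the threshold with the inhibitor. In 501mel it was 3.34, 2.73 and 2.80 log2 CPM with SCDi, against 2.95, 2.77 and 2.49 with DMSO (0.22 ± 0.28, 95% interval -0.35 to 0.79, limma adjusted p = 0.870). IGR37 had 1.92, 2.32 and 2.17 with SCDi, against 1.72, 1.72 and 1.79 with DMSO (0.39 ± 0.28, interval -0.18 to 0.96, adjusted p = 0.263). The groups overlapped in 501mel and not in IGR37, with 66 reads against 53 in IGR37.

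**Figure D3:**
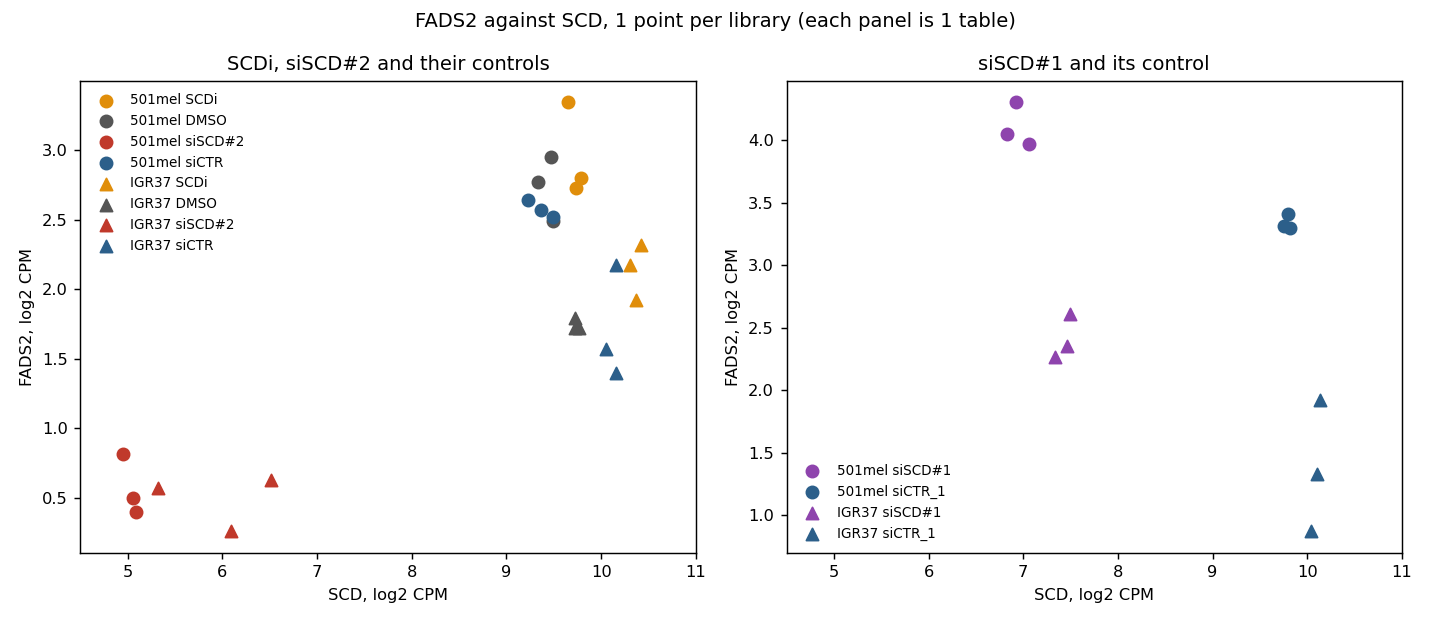
FADS2 against SCD, both in log2 CPM, 1 point per library, with 1 panel for each table. SCD is lowest in the siSCD#2 libraries of 1 panel and the siSCD#1 libraries of the other. FADS2 is at 0.26 to 0.81 in the siSCD#2 libraries and at 2.27 to 4.30 in the siSCD#1 libraries.

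FEN1, a DNA repair nuclease whose gene overlaps the start of the FADS2 span on the same strand and shares 49 exon bases with it, differed by -0.33 ± 0.19 in 501mel and 0.26 ± 0.19 in IGR37 with siSCD#2 (limma adjusted p = 0.182 and 0.287), where FADS2 fell. With siSCD#1 it differed by -0.20 ± 0.11 (adjusted p = 0.174) in 501mel and fell by 0.88 ± 0.11 (adjusted p = 1.61e-05) in IGR37, where FADS2 rose. FEN1 passed the threshold in 1 of these 4 comparisons, in the direction opposite to FADS2.

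Inhibition of the enzyme and loss of its mRNA can be set against each other within the table of 24 libraries, for SCDi and siSCD#2. The SCDi effect minus the siSCD#2 effect on FADS2 was 2.23 ± 0.39 in 501mel and 1.62 ± 0.39 in IGR37 (limma adjusted p = 0.000152 and 0.00181). FADS1 did not differ past the threshold in 501mel, at -0.07 ± 0.14 with an interval of -0.36 to 0.22 (adjusted p = 0.773). In IGR37 its SCDi effect was 0.40 ± 0.14 larger (adjusted p = 0.0259), a call lost in 4 of 12 fits without 1 library and in 3 of 11 other alternatives (highest adjusted p = 0.0898). SCD5 differed by -0.11 ± 0.27 in 501mel and -0.17 ± 0.27 in IGR37 (adjusted p = 0.817 and 0.649). Of all genes, 21.0% passed in this comparison in 501mel and 38.8% in IGR37.

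In control libraries, the 2 polyunsaturated pathway desaturases were lower in IGR37 than in 501mel. FADS2 differed by -0.99 ± 0.28 with DMSO, -0.86 ± 0.28 with siCTR and -1.97 ± 0.26 with siCTR_1 (IGR37 minus 501mel, limma adjusted p = 0.00325, 0.00887 and 8.36e-06). FADS1 differed by -0.57 ± 0.10, -0.41 ± 0.10 and -0.94 ± 0.08 (adjusted p = 2.19e-05, 0.000853 and 7.34e-08). With spike-in scaling, the differences with DMSO and siCTR were no longer past the threshold for FADS1 (adjusted p = 0.0725 and 0.0615) or FADS2 (adjusted p = 0.0656 and 0.0505), and that of FADS2 with siCTR was also lost without 1 IGR37 siCTR library (adjusted p = 0.0506). SCD was higher in IGR37 with siCTR, by 0.76 ± 0.16, and with siCTR_1, by 0.30 ± 0.07 (adjusted p = 0.000172 and 0.00149), and with DMSO the difference of 0.31 ± 0.16 was not past the threshold (adjusted p = 0.0962), though it came past it in 4 of 11 alternatives (lowest adjusted p = 0.00172). SCD5 was -0.07 ± 0.19, 0.68 ± 0.19 and 0.43 ± 0.25, past the threshold only with siCTR (adjusted p = 0.758, 0.00287 and 0.151). The lines differ widely, with 60.8%, 62.6% and 60.4% of all genes past the threshold under the 3 controls.

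**Figure D4:**
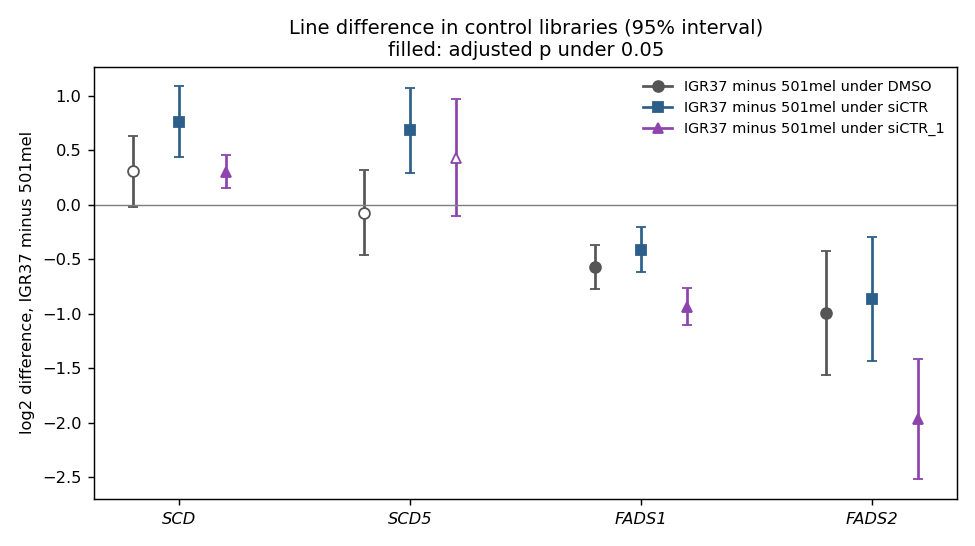
Log2 difference, IGR37 minus 501mel, of the 4 desaturases under DMSO, siCTR and siCTR_1, with 95% intervals from limma. FADS1 and FADS2 lie below 0 under all 3 controls, between -0.41 and -1.97, and the points of SCD lie between 0.30 and 0.76.

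No siCTR minus DMSO difference of a member was past the threshold as fitted, but in IGR37 that of SCD came past it in 3 of 11 alternatives (lowest adjusted p = 0.00507) and that of FADS1 in 2 of 11 (lowest adjusted p = 0.0158). The siCTR minus DMSO difference in IGR37 was 0.39 ± 0.16 for SCD, 0.25 ± 0.10 for FADS1, 0.30 ± 0.19 for SCD5 and -0.03 ± 0.28 for FADS2 (limma adjusted p = 0.103, 0.0874, 0.311 and 0.966). SCD was higher in all 3 siCTR libraries of IGR37 (10.16, 10.16 and 10.05 log2 CPM) than in its DMSO libraries (9.77, 9.73 and 9.72). In 501mel the differences were -0.07 ± 0.16 for SCD, -0.45 ± 0.19 for SCD5, 0.09 ± 0.10 for FADS1 and -0.16 ± 0.28 for FADS2 (adjusted p = 0.843, 0.132, 0.631 and 0.785). Of all genes, 11.3% passed in 501mel and 15.5% in IGR37.

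Ordered by mean level in the table of 24, SCD was highest in IGR37 with SCDi, then with siCTR, followed by IGR37 with DMSO and 501mel with SCDi, whose libraries overlapped. Below these came 501mel with DMSO and with siCTR, which overlapped, then the siSCD#2 libraries of IGR37 and of 501mel. For FADS1 the highest groups were 501mel with siSCD#2 and with SCDi, which overlapped, and IGR37 with DMSO was lowest and apart from its neighbour. For FADS2 the other 501mel groups were highest, where the libraries with SCDi and with siCTR each overlapped those with DMSO but not each other, and IGR37 with SCDi, DMSO and siCTR came next. Both siSCD#2 groups were lowest for FADS2 and overlapped. For SCD5 every neighbour in the order overlapped the next, between 3.87 in IGR37 with siCTR and 2.96 in IGR37 with SCDi. In the table of 12, the order of FADS2 was 501mel with siSCD#1, 501mel with siCTR_1, IGR37 with siSCD#1 and IGR37 with siCTR_1, with no overlap between neighbours.

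Among 6 measured relatives of the members (other lipid desaturases and related oxidases), the largest changes were those of TMEM189 and FAXDC2. TMEM189, which makes the vinyl ether bond of plasmalogens, fell with siSCD#2 by 2.32 ± 0.11 in 501mel and 1.13 ± 0.11 in IGR37, and fell with SCDi by 0.70 ± 0.11 in IGR37 (limma adjusted p = 3.65e-14, 1.39e-08 and 1.69e-05). SC5D, a sterol desaturase, rose with siSCD#2 by 0.84 ± 0.16 in 501mel and 1.03 ± 0.16 in IGR37 (adjusted p = 0.000131 and 7.07e-06). The sterol oxidase MSMO1 fell with siSCD#1 by 0.84 ± 0.11 in 501mel and 1.35 ± 0.11 in IGR37 (adjusted p = 2.12e-05 and 2.04e-07). In IGR37 MSMO1 also fell with SCDi by 0.59 ± 0.13 and rose with siSCD#2 by 0.44 ± 0.13 (adjusted p = 0.000471 and 0.00549). FADS3, the third gene of the cluster on chromosome 11, rose with siSCD#1 by 1.09 ± 0.12 in 501mel and 0.48 ± 0.12 in IGR37 (adjusted p = 3.36e-06 and 0.00584). With siSCD#2 it fell by 0.54 ± 0.16 in 501mel and rose by 0.42 ± 0.16 in IGR37 (adjusted p = 0.00874 and 0.0350). DEGS1, which makes the double bond of ceramide, fell in IGR37 by 0.70 ± 0.21 with SCDi and by 0.73 ± 0.18 with siSCD#1 (adjusted p = 0.00809 and 0.00448). FAXDC2 rose in IGR37 by 0.90 ± 0.35 with SCDi and by 1.51 ± 0.27 with siSCD#1 (adjusted p = 0.0382 and 0.000424). These rises rest on few reads, 27, 27 and 21 with SCDi against 15, 11 and 17 with DMSO. With siSCD#1 the FAXDC2 reads were 36, 17 and 23, against 11, 13 and 20 with siCTR_1. Of the 6 relatives, 0 passed with SCDi in 501mel, 1 rose and 3 fell with SCDi in IGR37, 1 rose and 1 fell with siSCD#1 in 501mel, and 2 rose and 2 fell in IGR37. With siSCD#2, 1 rose and 2 fell in 501mel and 3 rose and 1 fell in IGR37. Over all genes, 0.292% passed with SCDi in 501mel and 36.1% to 45.9% in the other comparisons.

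Cytochrome b5 (CYB5A), the electron donor of the desaturases, fell in 4 of 6 comparisons. It fell with siSCD#2 by 0.97 ± 0.12 in 501mel and 0.86 ± 0.12 in IGR37, with SCDi by 0.84 ± 0.12 in IGR37, and with siSCD#1 by 0.33 ± 0.13 in 501mel (limma adjusted p = 2.91e-07, 1.42e-06, 1.74e-06 and 0.0476). The reductase gene CYB5R2 fell with siSCD#2 in 501mel by 2.76 ± 0.34 (adjusted p = 3.86e-07), and its other 5 differences were not past the threshold. Of 7 electron transfer genes, 0 passed with SCDi in 501mel and 3 fell in IGR37, 2 fell with siSCD#1 in 501mel while 2 rose and 2 fell in IGR37, and with siSCD#2 1 rose and 2 fell in 501mel while 3 fell in IGR37. The share of all genes past the threshold was 0.292% with SCDi in 501mel and 36.1% to 45.9% elsewhere.

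**Figure D5:**
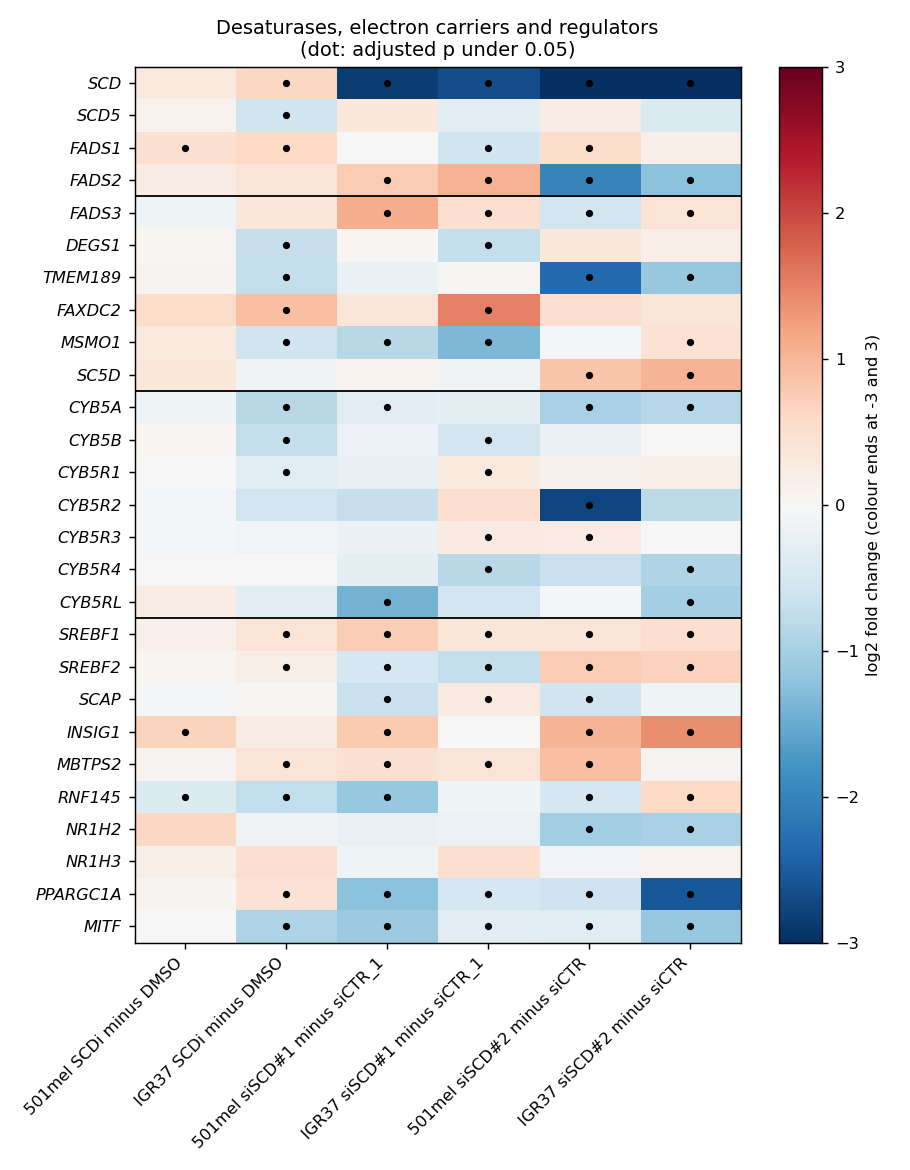
Log2 change, treated minus matched control, of the members and of genes named around them, by comparison. Colour gives the change, red for higher and blue for lower, and a dot marks a limma adjusted p under 0.05. SREBF1 is higher in 5 of 6 comparisons and MITF lower in 5 of 6.

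SREBF1, the SREBP that drives fatty acid genes, was higher in 5 of 6 comparisons, by 0.74 ± 0.09 with siSCD#1 and 0.40 ± 0.12 with siSCD#2 in 501mel, and by 0.41 ± 0.12 with SCDi, 0.37 ± 0.09 with siSCD#1 and 0.50 ± 0.12 with siSCD#2 in IGR37 (limma adjusted p between 4.09e-06 and 0.0109). INSIG1, the sterol-sensing retention factor and SREBP target, was higher in 4, by 0.68 ± 0.10 with SCDi, 0.77 ± 0.08 with siSCD#1 and 1.03 ± 0.10 with siSCD#2 in 501mel, and by 1.39 ± 0.10 with siSCD#2 in IGR37 (adjusted p between 2.62e-11 and 0.00114). SREBF2, the SREBP of sterol genes, rose with siSCD#2 by 0.77 ± 0.07 in 501mel and 0.70 ± 0.07 in IGR37, and fell with siSCD#1 by 0.51 ± 0.08 and 0.71 ± 0.08 (adjusted p = 9.91e-09, 3.82e-08, 0.000119 and 6.42e-06). With SCDi in IGR37 it rose by 0.19 ± 0.07 (adjusted p = 0.0450). SREBF2 moved with siSCD#2 and with siSCD#1 in the directions opposite to those of FADS2. SCAP, the SREBP escort, fell with siSCD#1 by 0.66 ± 0.10 and with siSCD#2 by 0.59 ± 0.12 in 501mel, and rose with siSCD#1 by 0.27 ± 0.10 in IGR37 (adjusted p = 4.31e-05, 0.000396 and 0.0346). The oxysterol receptor NR1H2 fell with siSCD#2 by 1.04 ± 0.28 and 0.97 ± 0.28 in 501mel and IGR37 (adjusted p = 0.00455 and 0.00631), and NR1H3 passed in none.

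MITF was lower in 5 of 6 comparisons, by 1.08 ± 0.06 with siSCD#1 and 0.35 ± 0.08 with siSCD#2 in 501mel, and in IGR37 by 0.92 ± 0.08 with SCDi, 0.33 ± 0.06 with siSCD#1 and 1.13 ± 0.08 with siSCD#2 (limma adjusted p between 2.45e-11 and 0.00100). In IGR37 with SCDi, MITF was thus lower while SCD was higher. RNF145, a ubiquitin ligase of the sterol pathway, was lower in 4 comparisons, and rose with siSCD#2 in IGR37 by 0.61 ± 0.07 (adjusted p = 7.44e-08). PPARGC1A, a coactivator of mitochondrial genes, was also lower in 4, with the largest fall, 2.55 ± 0.16, with siSCD#2 in IGR37 (adjusted p = 1.89e-12), and rose with SCDi in IGR37 by 0.44 ± 0.16 (adjusted p = 0.0258). Of the regulators, 24 in the table of 24 libraries and 23 in the other, 1 rose and 1 fell with SCDi in 501mel and 6 rose and 4 fell in IGR37. With siSCD#1, 8 rose and 11 fell in 501mel and 3 rose and 4 fell in IGR37, and with siSCD#2 7 rose and 7 fell in 501mel and 6 rose and 5 fell in IGR37. Beside these counts, 0.292% of all genes passed with SCDi in 501mel and 36.1% to 45.9% in the other comparisons.

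Genes of sterol synthesis and uptake, which share the SREBP input, rose most with siSCD#2 in IGR37, where 13 of 15 rose and 1 fell, with a median change of 1.04. With siSCD#2 in 501mel 9 rose and 1 fell (median 0.52). With siSCD#1 9 rose and 1 fell in 501mel (median 0.29), against 2 and 4 in IGR37 (median -0.11). With SCDi 2 rose and 0 fell in 501mel (median 0.32), and 7 rose and 4 fell in IGR37 (median 0.40). The median over all genes lay between -0.026 and 0.031 in the comparisons run. Genes past the threshold were 0.292% of all genes with SCDi in 501mel and 36.1% to 45.9% with the other treatments. HMGCS1, the enzyme at the entry of sterol synthesis, rose with siSCD#2 by 1.43 ± 0.13 in 501mel and 2.25 ± 0.13 in IGR37, and fell with siSCD#1 by 0.69 ± 0.10 in IGR37 (limma adjusted p = 4.00e-09, 8.46e-13 and 9.11e-05). With SCDi it rose by 0.72 ± 0.13 in 501mel and 0.40 ± 0.13 in IGR37 (adjusted p = 0.00886 and 0.0158). With siSCD#2 in IGR37, where this list rose most, FADS2 fell and FADS1 was not past the threshold.

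The steps before and after desaturation were mixed, where 0.292% of all genes passed with SCDi in 501mel and 36.1% to 45.9% in the other comparisons. Of 15 fatty acid synthesis and activation genes, 0 passed with SCDi in 501mel and 4 rose and 6 fell in IGR37, 4 rose and 2 fell with siSCD#1 in 501mel and 3 rose and 2 fell in IGR37, and 3 rose and 5 fell with siSCD#2 in 501mel and 5 rose and 5 fell in IGR37. Among them the citrate carrier SLC25A1 fell in 4, by 2.52 ± 0.24 with siSCD#2 in IGR37 (limma adjusted p = 4.78e-09), and malic enzyme ME1, a source of NADPH, rose in 4, by 1.28 ± 0.19 with siSCD#1 in 501mel (adjusted p = 4.70e-05). ACSL4, which activates arachidonic acid, rose with siSCD#2 by 1.02 ± 0.10 in 501mel and 0.88 ± 0.10 in IGR37 (adjusted p = 1.41e-08 and 1.07e-07). In IGR37 ACSL4 also rose with SCDi by 0.35 ± 0.10 and fell with siSCD#1 by 0.45 ± 0.15 (adjusted p = 0.00585 and 0.0249). Of 12 elongation genes, 0 passed with SCDi in 501mel and 1 rose and 5 fell in IGR37, 3 rose and 3 fell with siSCD#1 in 501mel and 1 rose and 5 fell in IGR37, and 2 rose and 2 fell with siSCD#2 in each line. ELOVL5, the elongase between the FADS2 and FADS1 steps, rose with siSCD#2 by 0.20 ± 0.08 in 501mel and 0.72 ± 0.08 in IGR37, and fell with SCDi by 0.48 ± 0.08 in IGR37 (adjusted p = 0.0376, 2.88e-08 and 1.44e-05). With siSCD#1 in 501mel it rose by 0.24 ± 0.08 (adjusted p = 0.0180).

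Of 19 measured genes from a list of lipid acyltransferases, PORCN, the phosphatidate phosphatase LPIN1 and the droplet coat proteins PLIN2 and PLIN3, 1 rose and 0 fell with SCDi in 501mel and 1 rose and 10 fell in IGR37. With siSCD#1, 3 rose and 10 fell in 501mel and 4 rose and 9 fell in IGR37, and with siSCD#2 2 rose and 7 fell in 501mel and 3 rose and 7 fell in IGR37. Among all genes, 0.292% passed with SCDi in 501mel and 36.1% to 45.9% in the other comparisons. GPAM, the first acyltransferase of glycerolipid synthesis, fell in 5 of 6, by 1.63 ± 0.18 with siSCD#1 and 1.58 ± 0.17 with siSCD#2 in 501mel (limma adjusted p = 3.63e-06 and 7.61e-08). PORCN, which attaches palmitoleate to WNT proteins, fell in 4, by 1.75 ± 0.17 with siSCD#1 in 501mel (adjusted p = 7.13e-07). LPIN1 rose in 4, by 1.42 ± 0.15 with siSCD#2 in 501mel (adjusted p = 2.50e-08). LPCAT3, an LXR target that puts polyunsaturated chains into phospholipids, fell in 4, by 2.01 ± 0.19 with siSCD#2 in IGR37 (adjusted p = 4.81e-09).

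Of 9 LXR targets, 0 passed with SCDi in 501mel and 2 rose and 3 fell in IGR37, 2 rose and 1 fell with siSCD#1 in 501mel and 3 rose and 2 fell in IGR37, and 2 rose and 2 fell with siSCD#2 in 501mel and 2 rose and 3 fell in IGR37. Of 9 genes that use polyunsaturated chains, 0 passed with SCDi in 501mel and 4 rose and 2 fell in IGR37, 4 rose and 3 fell with siSCD#1 in 501mel and 2 rose and 2 fell in IGR37, and 0 rose and 5 fell with siSCD#2 in 501mel and 3 rose and 4 fell in IGR37. PTGES3, a prostaglandin E synthase and HSP90 co-chaperone, fell in 5 of 6, by 0.18 ± 0.06 to 0.53 ± 0.06 (limma adjusted p between 1.43e-07 and 0.0222). From the same list, PTGES2 also fell in 5 of 6, while PTGS2 rose in 4 of 6 and fell in 0. Of 10 melanocyte lineage genes, 0 passed with SCDi in 501mel and 1 rose and 7 fell in IGR37, 2 rose and 7 fell with siSCD#1 in 501mel and 2 rose and 3 fell in IGR37, and 3 rose and 5 fell with siSCD#2 in 501mel and 4 rose and 6 fell in IGR37. The part of these lineage changes in the desaturase values was not tested. For the lists of this paragraph, the share of all genes that passed was 0.292% with SCDi in 501mel and 44.1% in IGR37. It was 43.0% and 36.1% with siSCD#1, and 37.9% and 45.9% with siSCD#2, in 501mel and IGR37. Among markers of other cell types, all 4 measured fibroblast genes fell with SCDi in IGR37, 1 rose with siSCD#1 and 1 with siSCD#2 in 501mel, and 2 rose and 1 fell with siSCD#2 in IGR37. Of the 2 epithelial genes, 1 rose with siSCD#1 in 501mel and 1 with siSCD#2 in IGR37. Of the 3 blood and endothelial genes, 1 rose with SCDi in IGR37 and 1 with siSCD#1 in 501mel, and 1 fell with siSCD#2 in each line.

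The genes whose pattern over the 24 libraries, centred on the mean of each line, was most like that of a member were ranked among the 6681 or 6682 more abundant genes by Pearson's r. For SCD they were SLC35E1, VPS35 and PRCP (r = 0.986, 0.981 and 0.979), and for FADS2 they were BROX, SLC7A5 and PDIA3 (r = 0.960, 0.959 and 0.948). In both cases the siSCD#2 libraries stand apart from the rest, and in the table of 12 the same pairs had r of 0.309, 0.372 and 0.199 for SCD and 0.730, 0.0180 and 0.497 for FADS2. For SCD5 they were DEK, GEMIN4 and HMGB3 (r = 0.853, 0.844 and 0.841, against 0.298, -0.0112 and 0.255 in the table of 12). For FADS1 they included NUPR1 and RPL12 (r = 0.875 and 0.866, against -0.633 and 0.249 in the table of 12). These are descriptions over libraries that share treatments and scaling, and no p is given.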

How the data were processed

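The authors deposited 2 tables of log2 values made with edgeR from reads aligned with STAR to hg38, per the submitters' processing notes, and per the labels' protocols from QuantSeq Forward libraries of 500 ng RNA. With a prior count of 0.25 every deposited log2 value gave a whole number of reads, to within 0.000404 and 0.000289 reads in the 2 tables, with scaling factors of 0.916 to 1.07. The tables held 13364 and 13066 genes, with 66 and 60 spike-ins and 1 Mitf-FLAG row kept out of the tests. Where a library had 0 reads of a gene, its level may still have been up to 0.388 to 1.19 CPM (3 counts, counting error only).

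Each table was fitted in limma 3.58.1 (R 4.3.3) with 1 coefficient per group, a variance trend and two-sided tests, BH adjusted over all its genes. The residual spread of a gene was pooled over all groups of its table. Requiring log2 values over 0 in 3 or more libraries removed 0 genes. The desaturases and all gene lists were chosen with earlier results of these data known. Named genes were the members, the other desaturases, 7 regulators (SREBF1, SREBF2, INSIG1, SCAP, NR1H2, NR1H3 and MITF), and, from each other list, the 2 with the smallest adjusted p and any past the threshold in 1 direction in at least 4 of 6 comparisons; some of these are given only in counts or are not reported here. An IGR37 siSCD#2 column, whose number matches no label, was used as a library of that group without a number. The alternatives were fits of the compared groups alone, no trend, stricter filtering, a pseudocount of 1, quantile, median and spike-in scaling, array weights, a replicate block, single libraries left out and, chosen after seeing the data, voom on recovered reads.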

Additional observations from a re-analysis of the deposited data

Results flagged for a closer look

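SCD5 was flagged because the effect of the inhibitor on it differed between the lines: -0.72 log2 units (IGR37 minus 501mel, limma adjusted p = 0.0456), with -0.61 in IGR37 and 0.12 in 501mel. The SCD5 call was lost in 10 of the 12 fits that left out 1 library (limma adjusted p up to 0.121). Of all genes, 27.6% passed in that comparison. FADS1 was flagged because the effect of siSCD#1 differed between the lines: -0.62 (adjusted p = 0.00171), with -0.60 in IGR37 and 0.01 in 501mel.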

How the results depend on the processing

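Effects are in log2 units. Every fall of SCD with an siRNA, both falls of FADS2 with siSCD#2, the rises of SCD and FADS1 with SCDi in IGR37, and the fall of FADS1 with siSCD#1 in IGR37 kept their direction and their call under every alternative run. Low read counts limit FADS2 and SCD5. The rise of FADS1 with SCDi in 501mel missed the threshold with the compared groups alone (0.45), no variance trend (0.45), a pseudocount of 1 (0.45) and median scaling (0.44), and without single libraries (0.42 to 0.48). The rise of FADS2 with siSCD#1 missed it in 501mel under quantile (0.63) and spike-in scaling (0.76) and without single libraries (0.67 to 0.83), and in IGR37 with the compared groups alone (1.04). Among treatment effects and their line differences, spike-in scaling, the replicate block and fits without single libraries aside, those that came past the threshold were the line difference of the SCDi effect on SCD with the compared groups alone (0.33), that of the siSCD#1 effect on SCD under median scaling (0.29), that of the siSCD#2 effect on FADS1 under quantile scaling (-0.39), that of the siSCD#2 effect on SCD with array weights (0.69), SCD5 with siSCD#2 in IGR37 with no trend (-0.43), and FADS1 with siSCD#2 in IGR37 with array weights (0.34). Of the control and line comparisons, the siCTR minus DMSO difference in IGR37 came past it for SCD with the compared groups alone (0.39), array weights (0.37) and voom (0.38), and for FADS1 under quantile scaling (0.29) and array weights (0.29). The line difference of SCD under DMSO did so in those 3 fits and under quantile scaling (0.30 to 0.39). Median scaling reversed FADS1 with siSCD#1 in 501mel (-0.078), and quantile scaling reversed SCD with siCTR against DMSO in 501mel (0.036). The causes were not tested.

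Of the spike-ins, 1 was lower by 1.52 to 2.38 while another was higher by 0.36 to 1.31 in every treated group, so the spike-in proportions themselves differed by group. Spike-in scaling brought SCD (0.93) and SCD5 (0.76) with SCDi in 501mel past the threshold, and took FADS1 with siSCD#2 in 501mel (0.10) and SCD5 with SCDi in IGR37 (-0.43) below it. It reversed SCD5 with siSCD#2 in 501mel (-0.20), FADS1 with siSCD#2 in IGR37 (-0.026), the line difference of the SCDi effect on SCD (-0.13), FADS1 (-0.32) and FADS2 (-0.29), the SCDi minus siSCD#2 difference of SCD5 (0.96) and FADS1 (1.00) in 501mel and of SCD5 in IGR37 (0.23), and SCD5 between the lines under DMSO (0.012). It took below the threshold SCD5 between the lines under siCTR (0.59) and SCD under siCTR_1 (0.29).

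Genes past the threshold with SCDi in 501mel numbered 8 with the compared groups alone, 152 with array weights, 5531 with spike-in scaling and 17 to 31 without single libraries, against 39. With spike-in scaling, 3300 passed with SCDi and 3660 with siSCD#2 in IGR37, against 5890 and 6136. Without single libraries, the line difference ranged from -0.82 to -0.61 for SCD5 with SCDi, from -0.090 (without the first IGR37 siSCD#2 library) to 0.51 (without the second) for SCD with siSCD#2, from -0.43 to -0.26 for FADS1 with siSCD#2 and from -0.79 to -0.51 for SCD5 with siSCD#2. SCD5 in IGR37 ranged from -0.71 to -0.49 with SCDi and from -0.55 to -0.28 with siSCD#2, and FADS1 with siSCD#1 in 501mel from -0.059 to 0.071. SCD5 between the lines under DMSO ranged from -0.15 to 0.0046, its SCDi minus siSCD#2 difference in 501mel from -0.24 to 0.0039, and FADS2 with siCTR against DMSO in IGR37 from -0.26 to 0.13.

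A pairing by equal replicate numbers was not seen: of 17 same-numbered pairs, 5 had a correlation of deviations above 0.1 (-0.192 to 0.252). The highest was in 501mel with SCDi and DMSO, whose pairs had 0.0343, 0.252 and 0.180. Low correlations cannot exclude shared cultures or batches. With a replicate block, FADS1 with siSCD#2 in IGR37 came past the threshold (0.28), FADS1 was no longer past it for the SCDi minus siSCD#2 difference in IGR37 (0.32), and no other call of a member changed. The IGR37 siSCD#2 library without a number was alone in its block, so in this fit it did not enter the estimates of its group. Both changed calls involve that group, and loss of the library and blocking were not tested apart.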

Other observations

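FADS1 under control siRNA in 501mel was 6.34 ± 0.15 log2 CPM in the table with siCTR and 7.22 ± 0.07 in the table with siCTR_1 (SD, n = 3 each), and FADS2 was 2.57 ± 0.06 and 3.34 ± 0.06. In IGR37 FADS1 was 5.92 ± 0.10 and 6.28 ± 0.04, and FADS2 1.71 ± 0.41 and 1.37 ± 0.53. The tables were normalised separately, so these pairs of control levels were not tested against each other.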
